A study of Homo sapiens with 6 samples.

Results

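Lysosomal genes and the transcription factors of the TFEB family were examined in HCT-116 cells, an established human colon carcinoma line. The 55 genes were matched by symbol in the deposited table, which holds 60546 gene identifiers. They comprise 3 MiT/TFE factors (TFEB, TFE3 and MITF), 8 membrane and cholesterol-handling proteins, 11 cathepsins and related peptidases, 12 hydrolases of glycans, 6 proteins of lipid and lipoprotein handling, and 15 subunits or accessory proteins of the vacuolar proton pump (V-ATPase). All 55 symbols were found.

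The comparison is between 3 samples of the line HCT-116-PMSCV-GOLPH3 and 3 of its control line, HCT-116-PMSCV-Vector. Both were made by infection with a PMSCV construct and puromycin selection, with the cDNA of GOLPH3, a trans-Golgi phosphoprotein, in one and an empty construct in the other, and the labels give both the genotype wild type. The samples of a line are described in the methods as cells of different generations, so p-values measure the spread between such samples and not between separately made lines. The titles also carry a number after P, whose meaning is not stated: GOLPH3 replicates 1, 2 and 3 carry P8, P12 and P13, and Vector replicates 1, 2 and 3 carry P12, P11 and P13.

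The lysosome is the acidic, degradative end point of endocytosis and autophagy. The V-ATPase pumps protons into it, soluble hydrolases reach it from the Golgi, mostly by mannose 6-phosphate receptors, and a glycosylated membrane coat led by LAMP1 and LAMP2 surrounds it. When mTORC1 at its surface is inactive, TFEB and TFE3 enter the nucleus and bind short palindromic elements around the E-box core CACGTG in promoters of lysosomal genes. MITF, the melanocyte factor of the same family, binds related sites.

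The RefSeq promoter windows (250 bases before to 50 bases after the start, GRCh38.p14) were available for 39 of the 55 genes. The core CACGTG was in 11 of them (28.2%), namely ATP6V0B, ATP6V0D1, ATP6V1G1, CD63, CTSA, CTSD, CTSF, GAA, LAMP1, MCOLN1 and NEU1, and in 7.43% of all 27305 promoters. The extended palindrome TCACGTGA, which contains the core, was in 6 (15.4%) and in 1.04% of all promoters. Both motifs read the same on either strand. The 30-base windows around the extended palindrome are shown because they are the letters of the family's textbook element, with the palindrome in capitals and each sequence on the gene's own strand.
GAA (chr17:80101493-80101522, plus strand): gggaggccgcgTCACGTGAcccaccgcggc
GAA (chr17:80101538-80101567, plus strand): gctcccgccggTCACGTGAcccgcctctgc
LAMP1 (chr13:113297199-113297228, plus strand): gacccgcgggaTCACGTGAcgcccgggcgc
LAMP1 (chr13:113297226-113297255, plus strand): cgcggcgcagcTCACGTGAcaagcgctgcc
MCOLN1 (chr19:7522571-7522600, plus strand): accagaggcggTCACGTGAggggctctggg
MCOLN1 (chr19:7522598-7522627, plus strand): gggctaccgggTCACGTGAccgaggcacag
CTSA (chr20:45891298-45891327, plus strand): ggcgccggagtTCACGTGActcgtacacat
ATP6V1G1 (chr9:114587699-114587728, plus strand): acgctgtgcggTCACGTGAcaacgggggcg
ATP6V0D1 (chr16:67481199-67481228, minus strand): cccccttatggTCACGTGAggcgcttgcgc
GAA, LAMP1 and MCOLN1 each held the palindrome at 2 positions. A match is a description of the letters in this window and not a bound site.

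The deposited values are whole reads divided by a size factor per library and are called normalized reads. The libraries held 15708846 to 21900764 reads, so that a gene without a read could have up to 2.47 to 3.29 normalized reads (3 reads, counting error only). The 55 genes took 0.370% (Vector replicate 2) to 0.480% (Vector replicate 3) of the normalized reads. The transcript of GOLPH3 itself measured 1630, 1272 and 1383 normalized reads where the label is GOLPH3, against 1968, 1892 and 1472 where it is Vector (log2 fold change -0.31, SE 0.27, adjusted p = 0.609), so it was not higher where the labels place the construct. For the GOLPH3 line of HCT-116, the paper reports overexpression at the protein level by western blot, which these RNA values do not measure. Because the transcript was not higher, the groups are called GOLPH3-labelled and Vector-labelled. Of the 10 colon epithelium markers checked, KRT20 was at 0 in every library, CEACAM5, VIL1 and LGALS4 had at most 10.3 normalized reads, and EPCAM, KRT8, KRT18, KRT19, CDH1 and CDX2 were present in every library. Summed over the 10 markers, the level was 62846 to 134416 normalized reads in the GOLPH3-labelled and 30019 to 41154 in the Vector-labelled libraries. Most of that sum came from KRT8, KRT18 and KRT19. Of the 9 markers tested, 8 had a positive log2 fold change and 2 were called. CDX2 leaned the other way, with 247, 261 and 358 normalized reads in the GOLPH3-labelled and 415, 184 and 897 in the Vector-labelled libraries (log2 fold change -0.52), and its groups overlapped. The neuronal markers UCHL1, NEFL and NEFM, at 0 to 0.825 normalized reads in every GOLPH3-labelled library, had 346 to 1757 in every Vector-labelled library. Of the other 5 neuronal markers, TUBB3 lay the other way, with 235, 110 and 519 normalized reads in the GOLPH3-labelled and 58.7, 172 and 75.5 in the Vector-labelled libraries (log2 fold change 1.37, adjusted p = 0.23). GAP43 had 0 in every GOLPH3-labelled library and 6.18, 5.48 and 14.6 in the Vector-labelled ones (log2 fold change -3.17, adjusted p = 0.012 with limma). It could be tested only because the Vector-labelled libraries held it. INA, STMN2 and ELAVL4 had at most 2.14. In bulk RNA, fewer cells of a type and less RNA per cell cannot be told apart.

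Per kilobase of annotated exon, the levels of the lysosomal genes spanned more than 3 orders on the log10 scale. PSAP, the precursor of the saposins that present sphingolipids to their hydrolases, had the highest median over the 6 libraries (3284 normalized reads per kb). It was followed by the V-ATPase subunit ATP6V1F (1554), the coat protein LAMP1 (978), ATP6V1G1 (938), the tetraspanin CD63 (936) and progranulin, GRN (881). At the low end were CTSS (1.27) and CTSF (5.29), followed by ATP6V0C (21.4), IDS (22.5), TFEB (22.7) and MITF (23.4). TFE3 had a median of 218 normalized reads per kb, above TFEB and MITF in every library. The lengths are the union of all annotated exons, which lowers the level of genes with many annotated isoforms. CTSS, a peptidase known from antigen-presenting cells, had at most 15 reads in any library.

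**Figure D1:**
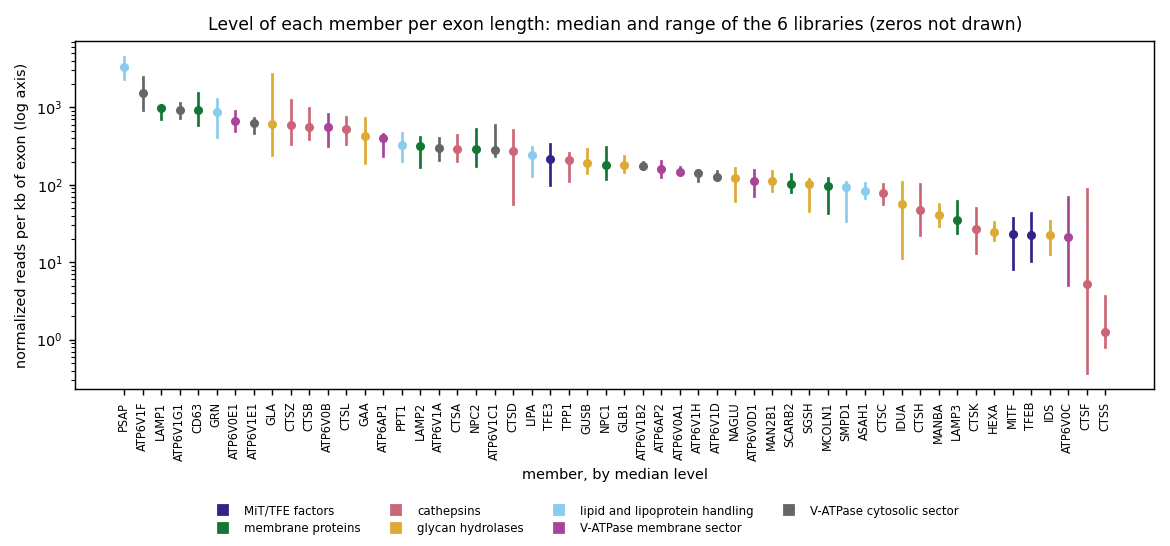
Level of the 54 detected genes on a log axis, in normalized reads per kb of annotated exon, ordered by the median. Points are medians of the 6 libraries, lines run from the lowest to the highest library with zeros left out, and colours give the role class. PSAP stands at 3284 and CTSS at 1.27, and CTSF has the longest line.

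NEU1, the lysosomal sialidase on chromosome 6 (31857659 to 31862906, minus strand, GRCh38), was listed at 0 in all 6 libraries. Within 1 Mb of NEU1, 74 protein-coding genes (73.3% of those annotated there) had at most 3 reads in every library, against 4219 of 19861 (21.2%) of all protein-coding genes. No fold change was computed for NEU1, and the other 54 genes passed the filter on low values.

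The comparison of the groups asked which lysosomal transcripts differ between GOLPH3-labelled and Vector-labelled cells. CTSF and GLA were lower and CTSZ was higher in the GOLPH3-labelled libraries, and these 3 of 54 genes (5.56%) passed an adjusted p of 0.05. The same threshold was passed by 5.07% of the 26536 genes tested, and by 6.68% of those with a mean of at least 10 normalized reads, a level that 53 of the 54 reached. At an unadjusted p of 0.05, 4 of the 54 were higher and 5 were lower (16.7%), with 17.6% of all genes past that threshold. That count rose to 14 (25.9%) without GOLPH3 replicate 1, where 5135 of 25192 genes passed. It was also 14 without Vector replicate 3, where 4329 of 25152 genes passed. The groups did not overlap for 13 of the 54 (24.1%; 7 higher, 6 lower), against 22% of all genes. The median log2 fold change of the 54 was 0.03, and that of all genes tested was 0.02. With all 6 libraries, the shares past each threshold were near those of all genes.

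**Figure D2:**
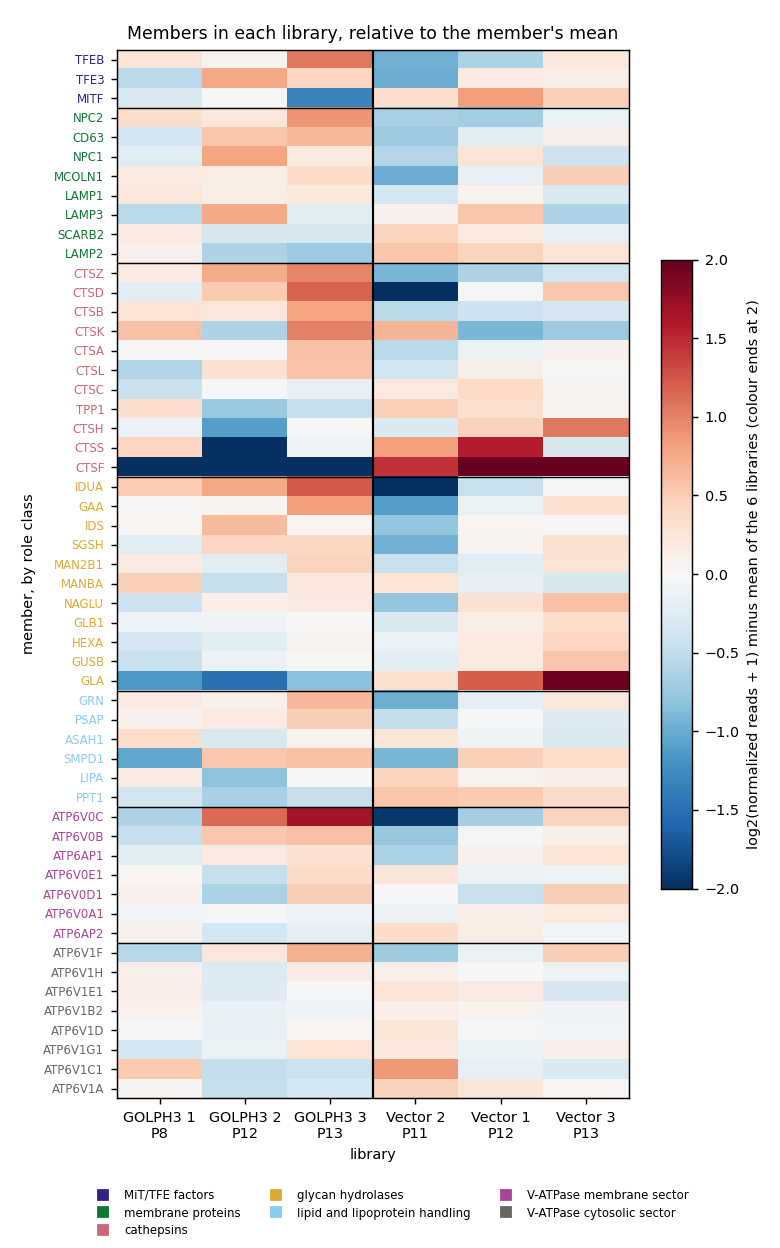
Each detected gene (row, by role class) in each library (column), as log2(normalized reads + 1) minus the gene's mean over the 6 libraries. Colours end at 2 on either side. CTSF and GLA are blue in all 3 GOLPH3-labelled columns and red in all 3 Vector-labelled columns, and Vector replicate 2 (P11) is blue for many genes.

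CTSF (ENSG00000174080, chromosome 11, 66563463 to 66568841, minus strand) encodes cathepsin F, a lysosomal cysteine protease. It had 0, 0 and 1.07 normalized reads in the GOLPH3-labelled libraries and 120, 29.6 and 257 in Vector-labelled replicates 1, 2 and 3. The highest GOLPH3-labelled library held a single read, and the groups were far apart. The Vector-labelled mean of 136 ± 114 (SD, n = 3) was at least 42.1-fold above the floor of 3 reads (adjusted p = 0.00031 with limma). Within the libraries that share P12 the log2 difference was -6.92, and within those that share P13 it was -6.96. CTSF kept its call when any single library was left out.

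GLA (ENSG00000102393, chromosome X, 101397803 to 101408012, minus strand) encodes alpha-galactosidase A, which removes terminal galactose from glycolipids and is deficient in Fabry disease. It had 703, 552 and 870 normalized reads in the GOLPH3-labelled libraries and 3613, 1915 and 6055 in the Vector-labelled ones. The lowest Vector-labelled library was above the highest GOLPH3-labelled library, and the means were 709 ± 159 and 3861 ± 2081 (SD, n = 3). On the log2 scale the fold change was -2.32 (SE 0.39, adjusted p = 0.0033). It was -2.71 within P12 and -2.80 within P13. GLA kept its call when any single library was left out and lost it when both P12 libraries were left out (adjusted p = 0.11, within a range of 4.5e-07 to 0.11 over the alternatives).

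The Vector-labelled libraries ranked alike for CTSF and GLA, with replicate 2 (P11) low and replicate 3 (P13) high. LAMP2 and PPT1 did not have this order, while CTSD, GAA, GRN, CTSH, GUSB and CTSZ did, so it was not particular to CTSF and GLA. The correlations of these libraries with GC content, given below, had it too. The sum of the 8 neuronal markers had the same order, at 1956, 1477 and 3202 normalized reads in Vector-labelled replicates 1, 2 and 3, and at 236, 111 and 521 in the GOLPH3-labelled libraries, where TUBB3 made up nearly all of the sum. That order came from UCHL1 (1173, 415 and 1757 normalized reads in Vector-labelled replicates 1, 2 and 3), while NEFL (372, 383 and 742) and NEFM (346, 501 and 612) were lowest in replicate 1 and TUBB3 was highest in replicate 2. Of the 8 neuronal markers, 3 (INA, STMN2 and ELAVL4) had at most 3 reads in every library. The part of these other transcripts in the CTSF and GLA differences was not tested.

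CTSZ (ENSG00000101160, chromosome 20, 58995185 to 59007247, minus strand) encodes cathepsin Z, a carboxypeptidase of lysosomes. It had 1421, 2138 and 2509 normalized reads in the GOLPH3-labelled libraries and 832, 678 and 991 in the Vector-labelled ones. The groups did not overlap, and the means of 2023 ± 553 and 834 ± 157 (SD, n = 3) differed 2.43-fold. The log2 fold change was 1.26 (SE 0.31, adjusted p = 0.035), and it was 1.36 within P12 and 1.34 within P13. The call held without GOLPH3 replicate 1 (adjusted p = 0.016). It was lost without GOLPH3 replicate 2 (0.11), GOLPH3 replicate 3 (0.17), Vector replicate 1 (0.16), Vector replicate 2 (0.0996) or Vector replicate 3 (0.065), each an adjusted p, with the fold change between 1.08 and 1.49 on the log2 scale in all 6 cases. The call was also lost with a pseudocount of 0.1 (0.052) and with at least 10 normalized reads in every library (0.081). Over the alternatives the adjusted p ran from 0.0061 to 0.43.

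**Figure D3:**
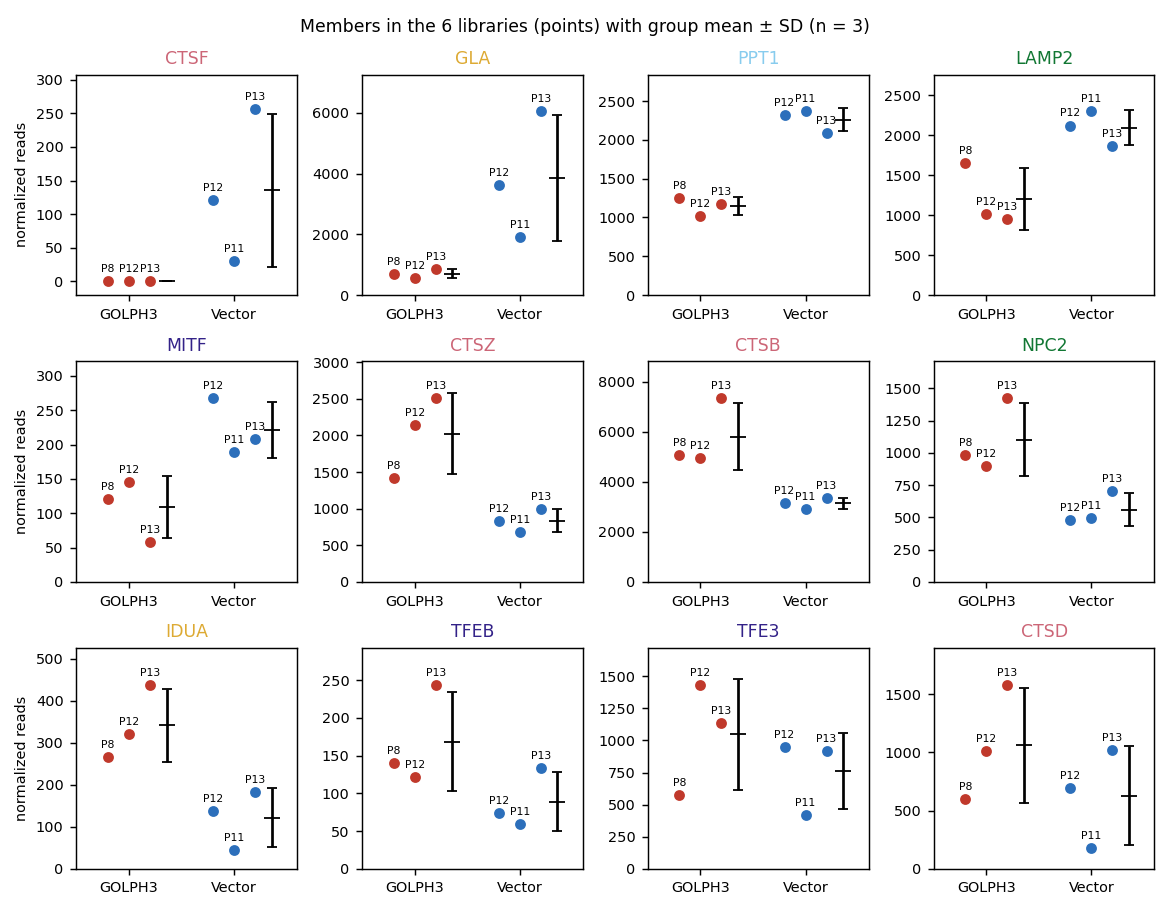
Normalized reads of 12 genes in the 6 libraries. Points are libraries with their P number, and bars are the group mean ± SD (n = 3). The groups are apart for the 9 genes from CTSF to IDUA, overlap for TFEB, TFE3 and CTSD, and the P8 and P11 points lie below the others for TFE3 and CTSD.

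Another 6 genes were past the unadjusted threshold without passing the adjusted one. PPT1, the thioesterase that removes palmitate from proteins, had 1251, 1022 and 1170 normalized reads in the GOLPH3-labelled and 2322, 2368 and 2092 in the Vector-labelled libraries. Its groups were clearly apart with little spread (log2 fold change -0.98, SE 0.26, adjusted p = 0.053), and it passed in some alternatives (adjusted p from 0.023 to 0.59). In the annotation, 23.4% of the exon length of PPT1 overlaps CAP1 on the opposite strand, an abundant gene, and whether the counting used strand was not given in the sources used here. IDUA, the iduronidase of heparan and dermatan sulfate, had 267, 321 and 438 normalized reads in the GOLPH3-labelled and 137, 44.9 and 184 in the Vector-labelled libraries. The log2 fold change was 1.67 (SE 0.49, adjusted p = 0.078), with Vector replicate 2 the lowest library by far. IDUA shares 13.4% of its exon length with SLC26A1 on the opposite strand.

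NPC2, which hands cholesterol to NPC1 in the lysosomal lumen, had 987, 900 and 1425 normalized reads in the GOLPH3-labelled and 480, 495 and 708 in the Vector-labelled libraries (log2 fold change 0.97, adjusted p = 0.11). CTSB, the cysteine protease cathepsin B, had 5086, 4965 and 7338 normalized reads in the GOLPH3-labelled and 3159, 2915 and 3350 in the Vector-labelled libraries (0.86, adjusted p = 0.11). For both, all 3 GOLPH3-labelled libraries were above all 3 Vector-labelled ones. LAMP2, a coat protein also needed for chaperone-mediated autophagy, had 1655, 1013 and 947 normalized reads in the GOLPH3-labelled and 2122, 2301 and 1863 in the Vector-labelled libraries (log2 fold change -0.84, adjusted p = 0.15). Its partner LAMP1 had 6088, 5763 and 6015 against 5457, 4062 and 4210 normalized reads (0.39, adjusted p = 0.49), so that the groups did not overlap for either protein, with the Vector-labelled libraries above for LAMP2 and below for LAMP1. Neither difference passed the adjusted test. CD63, NPC1 and the calcium channel MCOLN1 had log2 fold changes of 0.55, 0.49 and 0.44, SCARB2, the receptor that carries glucocerebrosidase to lysosomes, had -0.32 and LAMP3 had -0.01, with overlapping groups in all 5.

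Of the MiT/TFE factors, none passed the adjusted threshold and MITF passed the unadjusted one. TFEB had 140, 122 and 243 normalized reads in the GOLPH3-labelled and 74.1, 59.2 and 134 in the Vector-labelled libraries. Vector replicate 3 lay above GOLPH3 replicate 2, so the groups overlapped (log2 fold change 0.93, 95% confidence interval -0.02 to 1.88, adjusted p = 0.30). TFE3 had 579, 1432 and 1133 normalized reads against 950, 422 and 917 (0.45, 95% confidence interval -0.45 to 1.35, adjusted p = 0.63), and the spread within each group exceeded the difference between them. MITF had 121, 146 and 58.7 normalized reads in the GOLPH3-labelled and 268, 190 and 209 in the Vector-labelled libraries, with no overlap (-1.11, 95% confidence interval -2.0 to -0.21, adjusted p = 0.17).

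**Figure D4:**
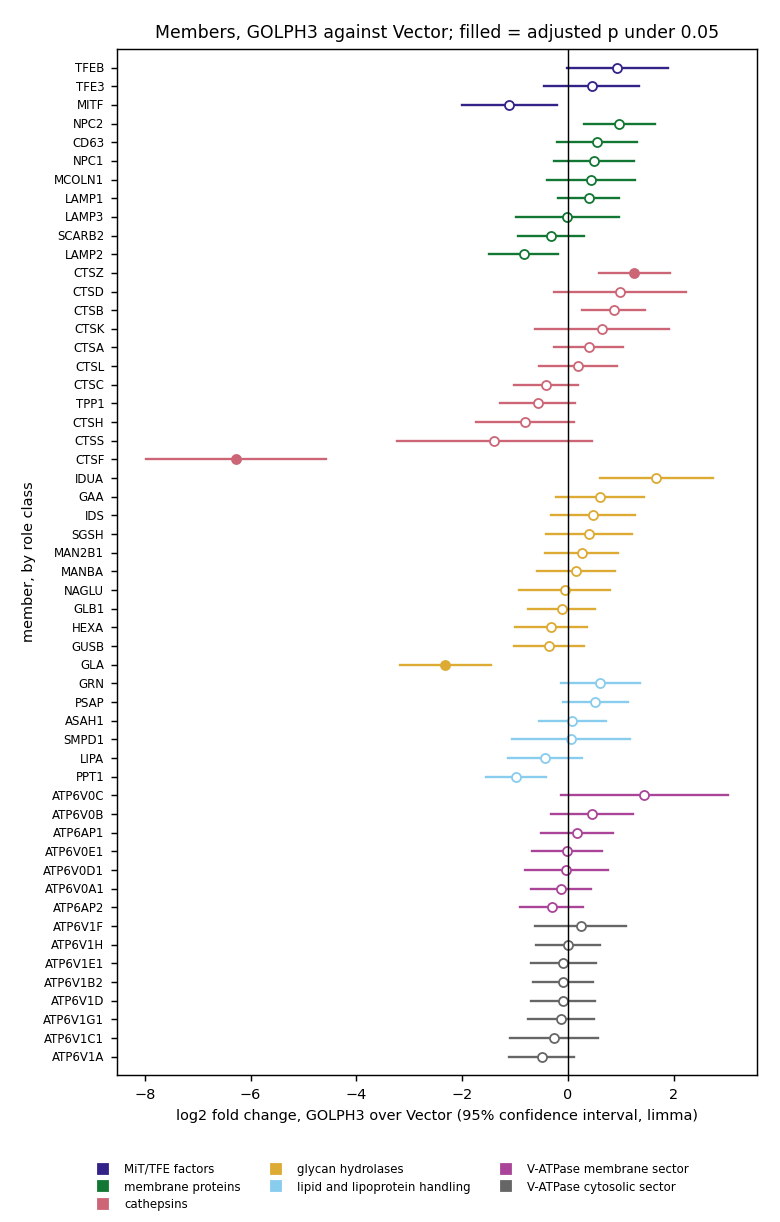
Log2 fold change of the 54 genes, GOLPH3-labelled over Vector-labelled, by role class, with 95% confidence intervals from limma. Filled points (CTSZ, CTSF and GLA) have an adjusted p under 0.05, and most other intervals include 0.

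None of the 15 V-ATPase genes passed either threshold between the groups, and the median log2 fold change was -0.02 for the 7 genes of the membrane sector and -0.09 for the 8 of the cytosolic sector. They differed in how much they varied between libraries. ATP6V1B2, the nucleotide-binding B subunit, had 1458, 1247 and 1322 normalized reads against 1445, 1519 and 1318, with the groups overlapping. ATP6V1A, the catalytic A subunit, had 1538, 1078 and 1160 against 1752, 2043 and 1516 normalized reads (log2 fold change -0.50, adjusted p = 0.40). ATP6V0C, the proteolipid that forms the rotating ring, had 20.4, 70.9 and 104 against 19.6, 7.67 and 43.8 (1.44, SE 0.72, adjusted p = 0.33). Of its exon length, 57.5% is shared with the annotated gene AC093525.2 on the same strand, so its level is uncertain. ATP6V1F, a small subunit of the cytosolic sector, ran from 723 to 1937 normalized reads and ATP6V1C1 from 1387 to 3498, with overlapping groups.

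Among the other cathepsins, the aspartic protease CTSD had 596, 1011 and 1578 normalized reads in the GOLPH3-labelled and 690, 174 and 1021 in the Vector-labelled libraries (log2 fold change 0.98, SE 0.57, adjusted p = 0.42). Vector replicate 2 was the lowest library. Of the exon length of CTSD, 41.7% is shared with the annotated gene AC068580.4 on the same strand, so its level is uncertain. CTSC, which activates granule proteases, had 643, 863 and 789 against 1158, 1002 and 911 normalized reads, with no overlap (-0.42, adjusted p = 0.48). The others, CTSA, CTSH, CTSK, CTSL, CTSS and TPP1, lay between -1.39 (CTSS) and 0.64 (CTSK). CTSH, an aminopeptidase, had 265, 134 and 284 against 393, 233 and 596 normalized reads.

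Of the 9 other glycan hydrolases detected, the sulfatase IDS was the only 1 whose groups did not overlap (209.3, 316.6 and 210.3 against 208.9, 118.3 and 207.7 normalized reads), and the GOLPH3-labelled minimum exceeded the Vector-labelled maximum by less than 1 normalized read. IDS shares 16.5% of its exon length with AC244197.3 on the same strand. GAA, the acid glucosidase deficient in Pompe disease and a gene with the palindrome at 2 promoter positions, had 2168, 2207 and 3815 against 1954, 997 and 2643 normalized reads (log2 fold change 0.61, adjusted p = 0.46). GLB1, GUSB, HEXA, MANBA, MAN2B1, NAGLU and SGSH lay between -0.36 (GUSB) and 0.40 (SGSH). In lipid handling, PSAP had 11102, 11867 and 14676 against 10173, 7465 and 8766 normalized reads with no overlap (0.51, adjusted p = 0.39), and GRN had 3319, 3166 and 4672 against 2623, 1510 and 3449 with overlap (0.62, adjusted p = 0.39). ASAH1 and SMPD1, the acid ceramidase and sphingomyelinase, were at 0.08 and 0.06 with overlapping groups, and LIPA, the acid lipase, was at -0.43.

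Of the 6 genes with the extended palindrome, GAA, LAMP1, MCOLN1, CTSA, ATP6V1G1 and ATP6V0D1, none passed the adjusted or the unadjusted threshold, with log2 fold changes of 0.61, 0.39, 0.44, 0.39, -0.13 and -0.03. Of the 11 genes with the core CACGTG, NEU1 was not tested and CTSF was called, with 5.07% of all genes called.

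Of 99 further genes in 5 lists of the same pathway, 96 were tested and 3 (3.13%) were called, below the 5.07% of all genes tested. All 3 were lower in the GOLPH3-labelled libraries, as were 1093 of the 1346 genes called over the whole table. In the list of 26 regulators of the MiT/TFE factors 1 was called, FNIP2, a partner of folliculin in nutrient signalling, with 222, 146 and 111 against 414, 512 and 426 normalized reads (log2 fold change -1.54, adjusted p = 0.022). Of 25 other lysosomal hydrolases tested, 1 was called, GALC, the galactosylceramidase deficient in Krabbe disease, with 0 in every GOLPH3-labelled library and 75.1, 18.6 and 70.4 normalized reads in the Vector-labelled ones (adjusted p = 0.00029). Of 11 other V-ATPase genes tested, 1 was called, ATP6V0D2, a subunit isoform known from osteoclasts, with 0, 0.825 and 0 against 90.6, 27.4 and 30.04 (adjusted p = 0.00048). GALC and ATP6V0D2 showed the same arrangement as CTSF, at the floor in the GOLPH3-labelled libraries and present in all 3 Vector-labelled ones, with replicate 2 the lowest. GALC and ATP6V0D2 passed the filter on low values only through the Vector-labelled libraries, and CTSF could not have passed without them. Under this filter, a gene below 1 normalized read in every GOLPH3-labelled library could be tested in no other way. Presence in all 3 Vector-labelled libraries was therefore a condition of testing GALC and ATP6V0D2 and not a result. How many of all genes share this arrangement was not counted. None of 22 other membrane proteins and none of 12 genes of mannose 6-phosphate sorting was called, and the median log2 fold changes of the 5 lists lay between -0.13 and 0.15. At an unadjusted p, 7 of the 96 were higher and 7 lower (14.6%), against 17.6% of all genes.

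The number after P moved with many lysosomal genes. After the group means were removed, the libraries deviated together over all genes within P12 (correlation 0.256), within P13 (0.259) and between P8 and P11 (0.331), and the other 6 correlations between a GOLPH3-labelled and a Vector-labelled library were negative. Removing the group means makes the deviations within a group cancel out. A positive correlation therefore pushes the others of the same library to be negative, and the negative ones add no separate information. The positive value between P8 and P11 is likewise fixed by the covariances among the P12 and P13 libraries. It is no separate agreement. In 12 of the 54 genes (22.2%, against 11.2% of all genes) the P8 and P11 libraries were below all 4 others: TFE3, CD63, CTSD, CTSL, GLB1, GUSB, SMPD1, NAGLU, SGSH, ATP6V0B, ATP6V1F and ATP6AP1. SMPD1 had 94.5 and 103 normalized reads in P8 and P11, and 249 to 295 in the others. In 6 of the 54 (11.1%, against 12.3% of all genes) they were above: MANBA, ASAH1, LIPA, TPP1, ATP6V1B2 and ATP6V1C1. ATP6V1C1, a stalk subunit of the V-ATPase, had 2752 and 3498 normalized reads in P8 and P11, and 1387 to 1708 in the others. These libraries were grouped after their values were seen, and the counts carry no test.

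The libraries also deviated along the GC content of the transcripts, the share of G and C bases. Here the deviation is from the gene's mean over all 6 libraries, so it includes the difference between the groups. Over the 51 lysosomal genes with at least 10 normalized reads in every library, the deviation from the gene's mean correlated with GC content at r = -0.88 in Vector replicate 2 (P11) and r = 0.69 in GOLPH3 replicate 3 (P13), and over 11921 protein-coding genes at -0.80 and 0.75. The correlation was 0.51 in GOLPH3 replicate 2, 0.26 in Vector replicate 3, -0.31 in Vector replicate 1 and -0.13 in GOLPH3 replicate 1. The P12 libraries thus had opposite signs. For the P8 and P11 libraries minus the others, r was -0.78 over the 51 genes and -0.69 over the protein-coding genes. The difference between the groups itself correlated with GC content at r = 0.58 over the 51 genes and 0.54 over the protein-coding genes. These are descriptions across genes of the same 6 libraries. IDUA (68.2% GC), CTSD (63.4%) and TFEB (62.4%) are at the rich end and LAMP2 (39.3%) and ATP6V1C1 (39.1%) at the poor end.

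**Figure D5:**
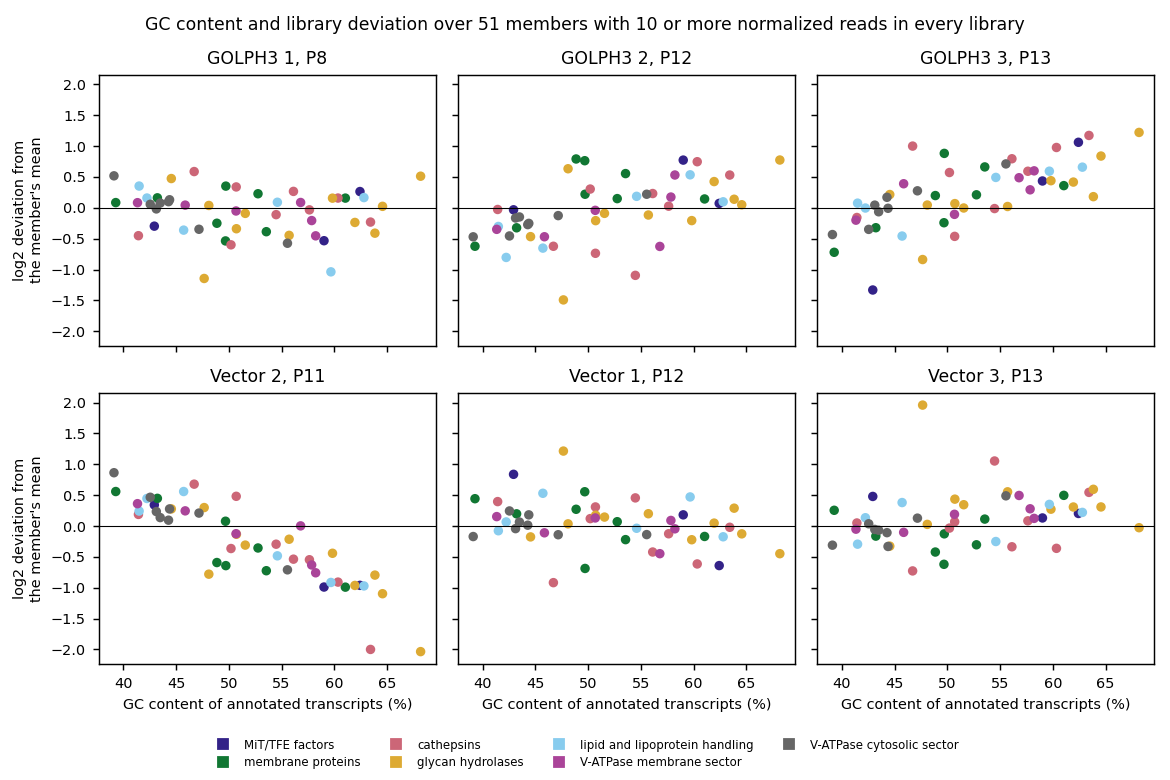
Deviation of 51 lysosomal genes from their mean over the libraries (log2 scale) against the GC content of their annotated transcripts in percent, one panel per library, coloured by role class. The cloud falls in Vector 2 (P11, r = -0.88) and rises in GOLPH3 3 (P13, r = 0.69).

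When the trend with GC content was removed from each library, an alternative chosen after the values were seen, 5 of the 54 (9.26%) were called, against 6.21% of 25890 genes and 8.2% of those with a mean of at least 10. CTSF (-6.60), GLA (-2.24) and CTSZ (0.75, adjusted p = 0.043) were joined by NPC2 (0.96, adjusted p = 0.038) and PPT1 (-0.82, adjusted p = 0.019). Several GC-rich genes came closer to 0: TFEB moved from 0.93 to 0.32, IDUA from 1.67 to 0.80, CTSD from 0.98 to 0.32 and ATP6V0C from 1.44 to 0.75. Others moved away from 0 without being called: NAGLU from -0.06 to -0.74, SMPD1 from 0.06 to -0.41 and GUSB from -0.36 to -0.62. The GC-poor LAMP2 moved from -0.84 to -0.41. GRN and GAA also changed sign, to -0.01 and -0.10.

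With the libraries blocked by P number, P8 and P11 as 1 block, also chosen after the values were seen, 20 of the 54 (37.0%) were called, 13 higher and 7 lower, against 20.9% of all genes and 29.7% of those with a mean of at least 10. Because the block was chosen with these same values known, its adjusted p-values do not hold their nominal level. They only describe the fit. The higher ones included TFEB (adjusted p = 0.023), CTSD (0.0084), NPC2 (0.00091), CTSB (0.0017), IDUA (0.0012), CD63, GRN, PSAP, GAA, NPC1, ATP6V0B and ATP6V0C, and the lower ones LAMP2 (0.0031), MITF (0.013), PPT1 (0.00064), TPP1 and ATP6V1A. Of those with the core CACGTG in the promoter, CD63, CTSD, GAA, ATP6V0B and CTSF were called in this fit. Under both corrections together 12 (22.2%) were called, against 13.6% of all genes and 18.8% of those with a mean of at least 10: CTSZ, IDUA, NPC1, NPC2 and CTSB higher, and GLA, CTSF, PPT1, CTSH, TPP1, NAGLU and GUSB lower. TFEB (0.32, adjusted p = 0.47) and LAMP2 were not among them. CTSF, GLA and CTSZ were called in each of these 3 fits, which were chosen late on the same libraries and are no separate support. The share of lysosomal genes called was above that of all genes in each, by less when set against genes of at least that mean, and the difference in share was not tested.

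The P12 libraries, 1 of each group, were also compared with the other 4, with the group as a covariate. No gene was called among the 54 by limma, and 0% of all 26536 genes were. DESeq2 on the recovered reads called 200 genes, none of them lysosomal, and edgeR called none. At an unadjusted p, 3 of the 54 passed against 7.24% of all genes, and the median log2 difference was -0.05 against 0.02 for all genes. NPC1, the lysosomal cholesterol transporter, had 3149 and 2196 normalized reads in the P12 libraries (GOLPH3-labelled, Vector-labelled), against 1530 and 2088 in the other GOLPH3-labelled and 1207 and 1359 in the other Vector-labelled libraries (log2 difference 0.80, SE 0.28, adjusted p = 0.56). Both P12 libraries were above the other 4. LAMP3, a LAMP of dendritic and stressed cells, had 237 and 205 in P12 against 90.1 to 147 in the others (0.99, SE 0.38, adjusted p = 0.62). ATP6V0D1, the stalk-binding subunit of the membrane sector, had 582 and 659 in P12 against 901 to 1268 (-0.80, SE 0.30, adjusted p = 0.60). With the GC trend removed ATP6V0D1 was called (-0.82, adjusted p = 0.035), with 2.04% of all genes. TFEB, TFE3 and MITF differed by -0.43, 0.72 and 0.60 without passing either threshold.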

How the data were processed

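Total RNA of 6 HCT-116 libraries, 3 per group, had been sequenced on an Illumina instrument. The submitters' processing notes name fastp 0.20.0, HISAT2 2.1.0, Cufflinks, featureCounts 1.6.1, DESeq2 and GRCh38; the annotation and use of strand were not given in the sources used here. Per gene and library, the authors deposited a signal, namely reads divided by 1 size factor per library without correction for length: 100.0% of nonzero values were whole multiples (tolerance 0.1 read) of a step. The table had 60590 rows, and 44 repeated identifiers were summed. Coordinates, exon lengths and GC content came from GENCODE 29. Within groups, libraries differed by more than sampling noise (chi-square per degree of freedom at least 74.9).

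limma 3.58.1 (R 4.3.3, trended prior) was fitted to log2(value + 1) for genes at 1 or more in at least 3 libraries, over all 6 libraries, with Benjamini-Hochberg adjustment over all genes tested. A fold change on this scale understates that of low genes. Alternatives were quantile normalization, edgeR 4.0.16 and DESeq2 1.42.0 on recovered reads, no filter, at least 10 in every library, a pseudocount of 0.1, a replicate block, P12 as a covariate, libraries left out, and, added after seeing the data, a block by P number and removal of the GC trend by lowess. Adjusted p ranges in the text cover all but the added ones. Scripts were tested on simulated data, with 200 genes changed by 2 on the log2 scale in either direction. In the group comparison limma recovered 155 of them with 14 false calls. The simulated libraries had no deviations shared by P number, and the block by P number was not run on them. The members, lists and tests were chosen with earlier results of these data known. Named were the 3 MiT/TFE factors, every member called, the 2 per role class with the smallest p, members whose groups did not overlap, called genes of the further lists, and, chosen after their values were seen, members called or not called in the added alternatives.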

Additional observations from a re-analysis of the deposited data

How the results depend on the processing

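Of 54 lysosomal genes, 3 were called in the GOLPH3 against Vector comparison, 5 by DESeq2, 1 (GLA) with at least 10 normalized reads in every library, a filter that leaves out CTSF, and 1 (CTSF) without both P12 libraries. Over all genes, DESeq2 called 1991 of 36340. The filter of at least 10 gave 170 of 13778, and leaving out both P12 libraries gave 256 of 23288. The added fits called 20 with the block by P number, 5 with the GC trend removed and 12 with both. The count at an unadjusted p was 9 (16.7%), with 4663 of 26536 genes past that threshold. It was 29 (53.7%) with the block by P number, with 8623 of 26536 genes past it. With that block and the GC trend removed it was 18 (33.3%), with 6801 of 25890 genes. It was 7 to 14 when a library was left out. The 14 (25.9%) were reached without GOLPH3 replicate 1, with 5135 of 25192 genes, and without Vector replicate 3, with 4329 of 25152 genes. The replicate block called 2 (GLA and CTSF) and 1081 of all 26536 genes, losing CTSZ (adjusted p = 0.051). Libraries of the same replicate number correlated at -0.232, -0.151 and 0.259 after the group means were removed, so the numbers were not taken to pair the samples. ATP6V1C1 changed sign to 0.17 with the GC trend removed, with or without the block, and ranged from -0.58 to 0.11 when a library was left out. GAA (-0.10) and GRN (-0.014) changed sign in the same 2 fits. The cause was not tested.

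In the P12 comparison 0 members were called, and 1 with the GC trend removed. The median difference of -0.05 ranged from -0.17 (without Vector replicate 1) to 0.12 (without Vector replicate 3), and CTSH ranged from -1.03 to 0.076 (without GOLPH3 replicate 2). Over the named genes and alternatives, 667 results were rated unchanged. Of these, 21 values within P12 and 19 within P13 have no test and stayed within the spread between replicates. The rest of the 667 kept their direction and side of the threshold. Of the other results, 31 passed the threshold in addition and 10 fell back under it. Another 12 values within a P number moved by more than the spread between replicates, and 8 results changed sign. With 3 libraries a group, and P number and GC content moving with the libraries, small differences in single lysosomal genes could not be resolved.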
